A study of Homo sapiens with 52 samples.

Results

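The comparison described here is the second day of retinoic acid treatment in H1 human embryonic stem cells, day 2 against day 1. Its members were chosen by label: the H1 samples of day 1 and of day 2, 2 biological replicates each, each hybridised to both chips (A and B) of the HG-U133 set. That is 4 of the 26 samples and 8 of the 52 arrays. H1 is an established line of pluripotent cells derived from the inner cell mass of a human embryo. All H1 cultures were grown in mTeSR medium on Matrigel, the day 1 and day 2 cultures both with 5 µM retinoic acid and the day 0 cultures before treatment. Days 3 to 10 continued the same treatment, and undifferentiated H9 and HUES8 cells entered the fit only through the shared estimate of the spread. No untreated H1 culture of day 1 or day 2 was analysed here, so the effect of retinoic acid and that of time in culture cannot be told apart. The arrays read bulk RNA, in which fewer cells of a type and less RNA per cell cannot be told apart.

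Retinoic acid binds nuclear receptors that sit on DNA as dimers and switch nearby genes on when the ligand arrives, so its direct targets respond within hours. Many of these targets encode transcription factors or secreted signals, and their products act on further genes, which makes a second wave. Bone morphogenetic proteins (BMPs) are secreted signals that steer ectoderm away from the neural fate, towards the neural plate border, surface ectoderm and, in human pluripotent cells, trophoblast-like states.

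Of the pluripotency markers, NANOG, SOX2 and LIN28A were still detected in the 4 samples. NANOG had signals of 4300 and 4927 on day 1 and 3077 and 3171 on day 2, SOX2 had 17994 and 20661, then 17847 and 15724, and LIN28A had 11500 and 12382, then 16861 and 14337. All of these were called present on every array, and none of the 3 genes was called between the days. POU5F1 was not among the genes tested. Of 27 measured pluripotency genes, 2 had been called higher on the first day, DNMT3B (1.33) and KLF4 (1.58). Another 2 had been called lower, POLR3G (-1.92) and TERF1 (-0.99). On the 8 arrays 44.8% to 50.9% of A chip probe sets and 31.1% to 36.8% of B chip probe sets were called present. Log2 signals of the replicates correlated across genes with r = 0.941 on day 1 and 0.951 on day 2 on the A chip, and 0.901 and 0.921 on the B chip, genes not being independent replicates. The ratio of the 3' to the 5' probe set of ACTB, which rises as RNA degrades, lay between 1.34 and 1.44 on the 4 A chip arrays. On the B chip arrays it lay between 1.47 and 1.61. Signals are the deposited intensities on a linear scale without a physical unit. Changes are differences of mean log2 signal ± SE with n = 2 per day, tested with limma over 12201 genes of both chips and adjusted by Benjamini-Hochberg. Calls were made under an adjusted p of 0.05.

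From day 1 to day 2, 29 genes rose, 0.238% of the genes tested, and 12 fell, 0.0984%. Among the rises were 5 genes of the list of neural crest and plate border factors, 4 BMP targets, 2 genes each of the surface ectoderm, simple epithelium and trophoblast lists, some counted in several lists, and genes of no list such as ZNF703 and PKDCC. The falls held an inhibitor of growth factor signalling, a stem cell surface protein and a kinase that had risen the day before. All 41 genes changed at least 2-fold in the fit. The step was small beside the first day, when 144 genes (1.18%) were called against day 0. At an unadjusted p under 0.05 the second day had 419 genes higher and 418 lower, and the median change of all genes was -0.01. Among the 29 rises, 11 genes were called present on both day 2 arrays and on neither day 1 array. Another 12 were present on at least 1 array of each day and had changes of 1.08 to 3.39, and 5 had no present call on either day. The remaining gene, ANXA9, was present on 1 day 2 array and on neither day 1 array.

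The replicates of day 2 did not move equally far. Among the 29 risen genes replicate 1 had the higher day 2 signal in 26, with a median ratio of 1.80 to replicate 2. The same replicate number was the higher one for 21 of these genes on day 1 (median ratio 1.22), 27 on day 3 (1.48) and 15 on day 0. Over all genes tested it was the higher in 50.8% on day 2, 48.1% on day 1, 51.0% on day 3 and 53.1% on day 0. Without H1 day 2 replicate 1 only 3 genes were called higher, ZNF703, ID2 and EPHB3, and 5 lower, while without H1 day 2 replicate 2 the counts were 29 and 18. Without H1 day 1 replicate 1 they were 35 and 3, and without H1 day 1 replicate 2 they were 20 and 3. These fits leave 1 sample of that day, which is assumed to vary like the other groups. Every one of the 41 genes kept its direction in all 4 of these fits, and ZNF703, ID2 and EPHB3 were called in all 4. Called in none of the 4 were 3 rises, HOXB2, EPOP and PTPRF, and 6 of the 12 falls, SPRY4, SGK1, PCDH18, CAPN3, FBXO15 and CTNNA3, and no fall was called in all 4. In the 29 and in the 12 called genes the replicates of the days did not overlap, which held for 15% of all genes upward and 17.7% downward. Without overlap, leaving out 1 replicate cannot change a gene's direction, so the kept directions were fixed in advance. Why the replicates differed was not tested.

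**Figure D1:**
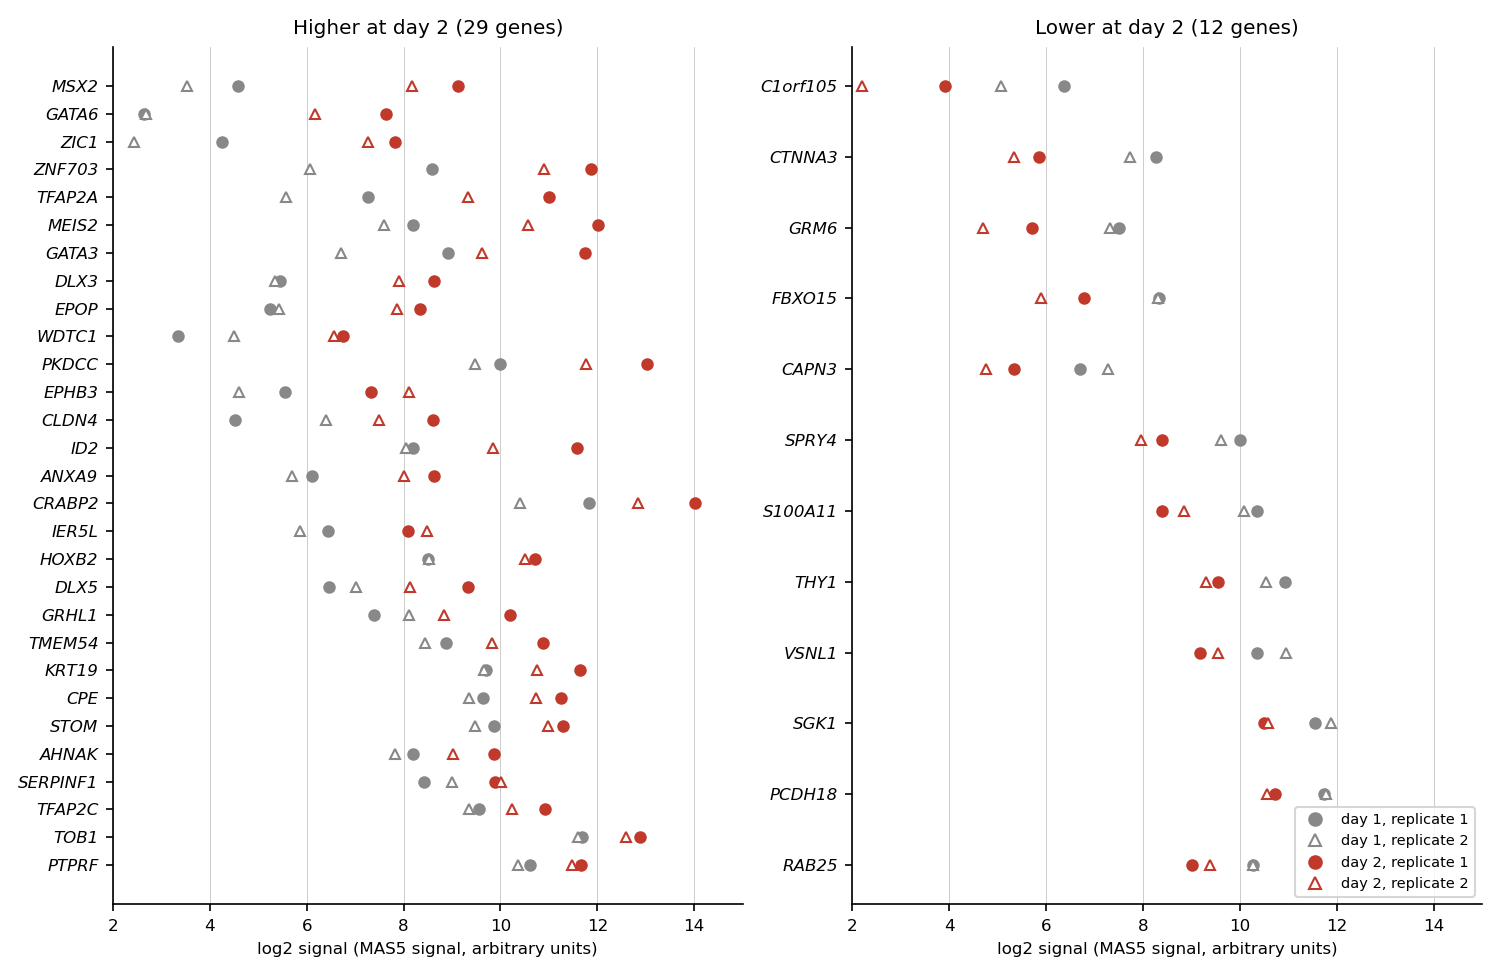
Log2 signal of each called gene on the day 1 arrays (grey) and the day 2 arrays (red), replicate 1 as filled circles and replicate 2 as open triangles, with the 29 genes higher on day 2 on the left and the 12 lower on the right. No gene has overlapping days, and in 26 of the 29 risen genes the filled red circle lies to the right of the open red triangle.

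The promoters of called genes were searched for the binding motifs of retinoic acid receptors and of HOX proteins with their PBX partners, because HOXB2 and MEIS2 were themselves among the rises. RefSeq promoter windows, 250 bases before to 50 bases after a gene's start on GRCh38.p14, were at hand for 19 of the 29 risen genes (28 windows) and 11 of the 12 fallen ones (17 windows). Retinoic acid receptor motifs were taken as direct repeats of a half-site with 5 or 2 bases between, on both strands. The half-site was AGGTCA or the variant AGTTCA in its first form. It was GGGTCA in the second form, with the variant form GGTTCA as well, and the forms could be mixed. The repeat with 5 bases between was in 0.0883% of all 35116 windows and the repeat with 2 in 0.0399%. Over windows of genes tested the shares were 0.0546% and 0.0273%. Neither was in a window of a called gene. At shares this low so few windows could hardly hold a match, so its absence says nothing about these genes. The HOX-PBX motif TGATNNAT was in 4 of the 28 windows of risen genes (14.3%), 1 of the 17 of fallen genes (5.88%), 4.23% of the 14644 windows of genes tested and 7.4% of all windows. Those 4 windows belonged to MEIS2, TFAP2A, ZIC1 and TOB1, and for the first 2 and TOB1 another window of the same gene lacked it. They are shown with those of MSX2 and ID2, the BMP-responsive genes described next. Each is written 5' to 3' on the gene's strand, with capitals marking the motif on either strand.
MEIS2, chr15:37098647-37098946, minus strand: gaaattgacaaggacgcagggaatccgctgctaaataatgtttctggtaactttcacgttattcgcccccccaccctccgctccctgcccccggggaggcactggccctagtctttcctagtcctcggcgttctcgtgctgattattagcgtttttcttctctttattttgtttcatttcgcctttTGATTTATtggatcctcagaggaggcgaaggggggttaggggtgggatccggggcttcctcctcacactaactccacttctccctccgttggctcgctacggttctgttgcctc
TFAP2A, chr6:10419610-10419909, minus strand: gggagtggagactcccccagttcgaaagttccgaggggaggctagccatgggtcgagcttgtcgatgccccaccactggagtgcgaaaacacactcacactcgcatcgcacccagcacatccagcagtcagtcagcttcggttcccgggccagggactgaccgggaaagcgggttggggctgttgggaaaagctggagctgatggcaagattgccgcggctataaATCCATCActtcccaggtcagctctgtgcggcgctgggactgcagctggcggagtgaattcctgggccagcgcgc
ZIC1, chr3:147409115-147409414, plus strand: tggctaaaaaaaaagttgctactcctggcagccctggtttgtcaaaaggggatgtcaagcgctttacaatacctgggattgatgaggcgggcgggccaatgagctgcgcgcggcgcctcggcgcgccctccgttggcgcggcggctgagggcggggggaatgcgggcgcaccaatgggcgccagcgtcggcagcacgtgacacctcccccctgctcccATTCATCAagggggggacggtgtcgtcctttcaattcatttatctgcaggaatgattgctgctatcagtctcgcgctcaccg
TOB1, chr17:50867929-50868228, minus strand: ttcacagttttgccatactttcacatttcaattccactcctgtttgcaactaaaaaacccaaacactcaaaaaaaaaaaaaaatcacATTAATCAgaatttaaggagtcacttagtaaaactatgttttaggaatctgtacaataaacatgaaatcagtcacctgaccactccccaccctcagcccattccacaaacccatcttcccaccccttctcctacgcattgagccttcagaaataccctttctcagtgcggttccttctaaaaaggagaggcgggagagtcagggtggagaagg
MSX2, chr5:174724332-174724631, plus strand: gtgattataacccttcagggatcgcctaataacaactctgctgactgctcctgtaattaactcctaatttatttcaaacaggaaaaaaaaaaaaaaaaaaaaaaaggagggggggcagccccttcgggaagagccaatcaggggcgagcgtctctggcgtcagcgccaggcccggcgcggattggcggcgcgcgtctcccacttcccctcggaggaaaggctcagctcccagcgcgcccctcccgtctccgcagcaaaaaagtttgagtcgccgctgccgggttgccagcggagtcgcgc
ID2, chr2:8681806-8682105, plus strand: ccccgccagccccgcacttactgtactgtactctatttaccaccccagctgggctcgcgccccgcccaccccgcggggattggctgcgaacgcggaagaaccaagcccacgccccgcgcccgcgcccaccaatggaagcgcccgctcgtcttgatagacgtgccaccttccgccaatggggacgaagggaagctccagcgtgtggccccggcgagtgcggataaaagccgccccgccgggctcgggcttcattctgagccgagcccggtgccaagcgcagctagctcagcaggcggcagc
The match begins 64 bases before the start of MEIS2, 25 before that of TFAP2A, 32 before that of ZIC1 and 163 before that of TOB1. A match of letters is a description and not a binding site.

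BMP-responsive genes held several of the rises. Of 22 measured members of the list of BMP targets and feedback genes, 4 rose and none fell. Their median change was 0.73, against -0.01 over all genes. Both day 2 arrays lay above both day 1 arrays in 15 of the 22, or 68.2%, against the 15% of all genes given above, and the reverse held for none. The lists were chosen with earlier results of these data known, so this excess is not an independent result. With limma, 10 members had an unadjusted p under 0.05 upward and 0 downward, against 419 and 418 of all 12201 genes. No present call was given for 13 of the 22 on day 1 and for 7 on day 2. Among those whose days did not overlap, NOG, GREM1, MSX1 and TBX3 had no present call on either day. The members that rose were MSX2, GATA3, ID2 and DLX5.

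MSX2 encodes a homeobox repressor that BMP signals switch on. Its signal was 10.8 and 6.40 on day 0, 23.9 and 11.6 on day 1, 559 and 288 on day 2 and 1202 and 880 on day 3. Neither day 1 array gave a present call and both day 2 arrays did. The rise was at least 12.7-fold (adjusted p = 0.0111), where day 1 signals under the lowest signal called present on their array were raised to that signal. That bound carries no sampling error. A second probe set of MSX2 gave a log2 change of 1.88.

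ID2 encodes a helix-loop-helix protein that holds back differentiation factors by pairing with them. It went down before it went up. Its signal was 642 and 599 on day 0, 291 and 267 on day 1, 3079 and 918 on day 2 and 4618 and 3520 on day 3. The day 2 rise was 2.59 ± 0.36 (adjusted p = 0.00295), from day 1 signals without a present call. The first-day change of -1.16 did not pass the test (adjusted p = 0.162), but the second-day change minus the first-day change did, at 3.75 (adjusted p = 0.0127). The related genes followed other courses. ID1 had 13427 and 11458 on day 1 and 23197 and 15777 on day 2, and ID3 had 593 and 455, then 1253 and 1129. Neither was called (adjusted p = 0.521 and 0.285), though the days did not overlap in either. ID4, which had risen by 3.50 ± 0.32 on the first day, had a second-day change of -0.01 ± 0.32.

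GATA3, a zinc finger factor of trophoblast and surface ectoderm, had signals of 481 and 104 on day 1 and 3412 and 783 on day 2. On day 3 it had reached 7212 and 4558. It rose by 2.87 ± 0.54 (adjusted p = 0.0216). Other probe sets of GATA3 gave 2.41 and 0.31, and with the mean over probe sets it was not called (adjusted p = 0.518). DLX5, a homeobox factor of the plate border and the limb, was called higher on both days. It had 9.24 and 7.78 on day 0, 88.6 and 129 on day 1 and 639 and 281 on day 2. The rise over day 1, where it had no present call, was 1.98 ± 0.40 (adjusted p = 0.0300). Its day 0 signals lay under the lowest signal called present on their arrays, so no size is given for the first-day step. BMP4, the ligand itself, had signals of 11.4 and 10.5 on day 0, 422 and 261 on day 1, 737 and 484 on day 2 and 1135 and 1139 on day 3. Its first-day step was called (adjusted p = 2.27e-08) and its second-day step was not (adjusted p = 0.609). BMP4 had no present call on day 0 or day 1 and 1 on day 2, so the called step lay between undetected signals.

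Factors of the neural plate border, the strip of ectoderm between neural plate and surface ectoderm, held 5 of the 29 rises. Of 13 measured members of that list MSX2, ZIC1, TFAP2A, DLX3 and DLX5 rose and none fell, and the median change was 0.21. TFAP2A, the AP-2 alpha factor of surface ectoderm and neural crest, had 153.6 and 47.5 on day 1 and 2041 and 641 on day 2. It was absent on both arrays of day 1 and rose by 3.74 ± 0.72 (adjusted p = 0.0246). Other probe sets of TFAP2A gave 2.68 and 1.45, and with the mean over probe sets its adjusted p was 0.258. ZIC1, a zinc finger factor of neural plate and border, had 19.2 and 5.40, then 226 and 153, a rise of at least 5.90-fold (adjusted p = 0.00409). Its other probe set gave -0.71. Without the detection filter a further probe set, which that filter leaves out, stood for the gene with a change of -0.42 (adjusted p = 0.988), so the direction of ZIC1 rests on 1 probe set. DLX3 had 44.0 and 40.7 on day 1 and 397 and 238 on day 2 (adjusted p = 0.0151), but no array of either day was called present and no fold is given. The other 8 members were not called. SOX9, a factor of neural crest and cartilage that had risen by 1.82 on the first day (adjusted p = 0.00391), had 369 and 388, then 605 and 606, without overlap (0.68 ± 0.32, adjusted p = 0.720). SNAI2, FOXD3, ETS1 and TWIST1 had changes of -0.86, -0.47, -0.31 and -0.07, and MSX1, TFAP2B and PAX3 had no present call on either day.

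The surface ectoderm list had 2 rises among 7 measured members, TFAP2A and TFAP2C, and a median of 0.57. TFAP2C, the AP-2 gamma factor, had 755 and 652 on day 1 and 1929 and 1212 on day 2 and rose by 1.12 ± 0.22 (adjusted p = 0.0262). Its second probe set gave 2.08. GRHL1, a grainyhead factor that governs epithelial genes and belongs to no list, went from 168 and 277 to 1181 and 454, a rise of 1.76 ± 0.38 (adjusted p = 0.0434). Its relative GRHL3 had 596 and 244, then 1983 and 815, and was not called (adjusted p = 0.308). The trophoblast list had 12 measured members, of which GATA3 and TFAP2C rose, both shared with other lists. Among its other members PGF, placental growth factor, was present on every array with 1280 and 700.2, then 1030 and 632 (-0.23 ± 0.38, not called). No present call on day 2 was given for 6 of the 12, among them PSG1, MUC15, VGLL1 and XAGE2.

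Simple epithelia, the single-layered linings of many organs, are marked by keratins and junction proteins. Of 19 measured members of the simple epithelium list CLDN4 and KRT19 rose, none fell, and the median change was 0.11. KRT19, a keratin of simple epithelia, had 836 and 805 on day 1 and 3198 and 1721 on day 2 and rose by 1.52 ± 0.23 (adjusted p = 0.00576). CLDN4, a tight junction protein, had 23.0 and 84.3, then 391.7 and 181, at least 5.19-fold higher (adjusted p = 0.0185). KRT18, the filament partner of KRT8, had 6419 and 8462 on day 1 and 6807 and 6205 on day 2, a change of -0.18 ± 0.20. It rose on the third day, by 1.25 ± 0.20 (adjusted p = 0.0140). The adhesion genes CDH1 and EPCAM had changes of 0.32 and -0.02 and were not called.

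The 5 members of the retinoid list that had risen on the first day, CYP26A1, RARB, RARA, DHRS3 and NRIP1, were not called on the second. CYP26A1, the enzyme that degrades retinoic acid, had 29255 and 31391 on day 1 and 27507 and 25169 on day 2, a change of -0.20 ± 0.22 after 4.37 ± 0.22 on the first day. The difference between these steps was called at -4.57 (adjusted p = 1.82e-06). RARB, a receptor and direct target, had 1035 and 931, then 1684 and 1276, a change of 0.58 ± 0.43 that was not called (adjusted p = 0.910). Among 21 measured members of the retinoid list only CRABP2 rose and none fell, with a median of -0.09. CRABP2 encodes the protein that carries retinoic acid to its nuclear receptors. It had 1001 and 794 on day 0, 3647 and 1358 on day 1, 16675 and 7325 on day 2 and 24256 and 13403 on day 3. The second-day rise was 2.31 ± 0.43 (adjusted p = 0.0216), and the first-day change of 1.32 had not passed (adjusted p = 0.192).

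Among HOX genes, which set position along the body axis, HOXB2 was the one called. It had 53.6 and 22.3 on day 0, 365 and 369 on day 1 and 1681 and 1446 on day 2. It was first called present on day 2 and rose by 2.09 ± 0.41 (adjusted p = 0.0288). As given above, that call did not hold with 1 replicate left out. HOXB1 had 543 and 348, then 1685 and 1427, with a change of 1.83 ± 0.43 that missed the threshold (adjusted p = 0.0776). HOXB3 had 427 and 257, then 533 and 178, and was not called until the third day, when it rose by 2.70 ± 0.52 (adjusted p = 0.0453). Of 10 measured HOX genes of paralog groups 1 to 5 HOXB2 alone was called, and of 8 of groups 6 to 13 none was. With limma, 1 of those 8 had an unadjusted p under 0.05 upward and 3 downward, and 5 of the 8 had no present call on day 2. MEIS2, a homeobox cofactor of HOX proteins, had 13.6 and 42.0 on day 0, 292 and 195 on day 1, 4121 and 1512 on day 2 and 5503 and 3568 on day 3. It was called higher on both days, by 3.32 ± 0.70 on the first (adjusted p = 0.0164) and 3.39 ± 0.70 on the second (adjusted p = 0.0383). The first-day size rests on day 0 signals without a present call, of which 13.6 was dimmer than every detected probe set there. With that value raised to the detection floor of 45.1, the first-day rise was at least 5.48-fold. Whether the steps were of similar size therefore cannot be told. PBX2 and PBX3, partners in the same complexes, had -0.01 and -0.02.

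A pair of further developmental regulators went from absent to present. ZNF703, a zinc finger corepressor, had 36.4 and 33.5 on day 0, 386 and 67.3 on day 1, 3722 and 1922 on day 2 and 4501 and 4076 on day 3. The second-day rise was at least 15.5-fold (adjusted p = 0.000569), the smallest adjusted p of the step, and its first-day step had been called too (adjusted p = 0.0220). Its relative ZNF503 had risen a day earlier, with 14.7 and 157.4 on day 0, 12814 and 11636 on day 1 and 17859 and 17186 on day 2, and its second-day change of 0.52 ± 0.74 was not called. GATA6, a factor of endoderm and heart mesoderm, had 6.27 and 6.45 on day 1, 198 and 72.5 on day 2 and 509 and 186 on day 3, a second-day rise of at least 3.80-fold (adjusted p = 0.0172). It was the single called gene among 11 measured members of the definitive endoderm list. Both day 2 arrays lay above both day 1 arrays in 4 of the 11 (36.4%) and below in 2, against 15% and 17.7% of all genes. HHEX, a homeobox factor of early endoderm and of blood and vessel precursors, had 323 and 251, then 1400 and 776, present on every array and not called (1.87 ± 0.47, adjusted p = 0.130). GATA5 had 29.3 and 61.2, then 435 and 72.2, with 1 present call, and FOXA3 had 994 and 1236, then 1317 and 1413, neither called. The other 7, among them SOX17, FOXA2 and GATA4, had no present call on either day.

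The remaining rises fell into no list. PKDCC, a secreted kinase of extracellular proteins, had 1013 and 716 on day 1 and 8388 and 3483 on day 2. That was a change of 2.67 (adjusted p = 0.00224), from day 1 signals without a present call. CPE, which trims prohormones, rose by 1.49 ± 0.24 after 1.61 on the first day, and TOB1, an antiproliferative protein, rose by 1.09 ± 0.20 after 1.15. Both had passed on both days. STOM, a membrane scaffold protein, had 936 and 711, then 2498 and 2010 (1.46 ± 0.26, adjusted p = 0.0151). AHNAK, a very large scaffold protein, had 294 and 226, then 940 and 523 (1.44 ± 0.29, adjusted p = 0.0306). SERPINF1, the secreted factor PEDF, had 344 and 511, then 950 and 1028 (1.24 ± 0.21, adjusted p = 0.0134). It was one of 3 risen genes whose day 2 signal was not higher in replicate 1, with EPHB3 and IER5L. PTPRF, a receptor tyrosine phosphatase, rose by 1.08 ± 0.23 (adjusted p = 0.0486), but its other probe sets gave 0.51, 0.25 and 0.38.

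Genes outside the naming rules, named after their values were seen, complete the rises. ANXA9, an annexin, had 69.5 and 51.99, then 397 and 259, a change of 2.41 (adjusted p = 0.0275). TMEM54 had 467 and 350, then 1895 and 901, a change of 1.69 from day 1 signals without a present call (adjusted p = 0.0216). EPHB3, a receptor tyrosine kinase of the ephrin system, had 47.1 and 24.4, then 161 and 277 (adjusted p = 0.00351). It had no present call on either day, nor had EPOP, a partner of the Polycomb repressive complex, with 38.0 and 42.7, then 322 and 233 (adjusted p = 0.0216), or IER5L, with 86.4 and 57.9, then 273 and 356 (adjusted p = 0.0275). WDTC1, a substrate adapter of a ubiquitin ligase, was called on its way back to the day 0 level. Its signal was 104 and 150 on day 0, 10.1 and 22.5 on day 1, 107 and 94.2 on day 2 and 105.7 and 101 on day 3, again with no present call on days 0 to 2. Without the detection filter another probe set stood for WDTC1, with a change of 0.11.

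Of the 12 falls 7 were in genes present on all 4 arrays, by 1.07 to 1.63 on the log2 scale. SPRY4, a feedback inhibitor that ERK signalling switches on, had 1841 and 1646 on day 0, 1020 and 779 on day 1, 335 and 248 on day 2 and 286 and 215 on day 3. It fell by 1.63 ± 0.35 (adjusted p = 0.0434). It was the single called gene among 21 measured members of the list of FGF and ERK feedback, whose median was -0.05. DUSP6, an ERK phosphatase that had fallen on the first day, had 511 and 249 on day 1, then 229 and 75.7, and was not called (adjusted p = 0.647).

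THY1, a surface glycoprotein used to mark human stem cells, had 5126 and 3400 on day 0, 1956 and 1480 on day 1 and 748 and 634 on day 2. It fell by 1.30 ± 0.24 (adjusted p = 0.0185), after a called fall on the first day of nearly the same size, -1.29. Its other probe sets gave -0.70 and -0.96. Of 18 measured members of the matrix and mesenchyme list it was the single one called, while 8 had both day 2 arrays below both day 1 arrays and 1, COL1A1, above. Over all genes 17.7% lay below and 15% above in this way. The median of the list was -0.23. VSNL1, a neuronal calcium sensor, had 1301 and 1973, then 577 and 751, and fell by 1.28 ± 0.27 (adjusted p = 0.0434). S100A11, a calcium-binding protein, had 1315 and 1091, then 338 and 460, and fell by 1.60 ± 0.30 (adjusted p = 0.0216).

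SGK1, a kinase induced by serum and glucocorticoids, turned around. Its signal was 741 and 1086 on day 0, 2991 and 3795 on day 1, 1437 and 1526 on day 2 and 1470 and 1617 on day 3. The rise of 1.91 ± 0.25 on the first day was followed by a change of -1.19 ± 0.25 on the second (adjusted p = 0.0434), and the difference between the steps was -3.10 (adjusted p = 0.00316). RAB25, a GTPase of epithelial membrane recycling, had 1239 and 1231, then 515 and 670 (-1.07 ± 0.19, adjusted p = 0.0151). PCDH18, a protocadherin, had 3432 and 3493, then 1686 and 1508 (-1.12 ± 0.23, adjusted p = 0.0309). Both had been above their day 0 signals on day 1, with first-day changes of 0.52 that were not called.

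The other 5 falls were of dim probe sets. GRM6, a glutamate receptor, had 182 and 161, then 52.1 and 25.8, a change of -2.22 (adjusted p = 0.0216). It was present on day 1 and absent on day 2. CAPN3, the muscle calpain, had 103.2 and 155, then 40.2 and 27.2, a change of -1.93 to day 2 signals without a present call (adjusted p = 0.0434). FBXO15, named like the next 2 after its values were seen, had 323 and 317, then 109.4 and 59.2, at least 3.71-fold lower (adjusted p = 0.0434). C1orf105 had 82.3 and 33.6, then 14.99 and 4.603, and CTNNA3, an alpha-catenin, had 306 and 213, then 57.5 and 40.4, both without a present call on these days. On day 3 the signals of these 5 were 87.96 and 173, 93.95 and 74.3, 215 and 356, 91.1 and 155, and 195 and 190, in the order named.

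**Figure D2:**
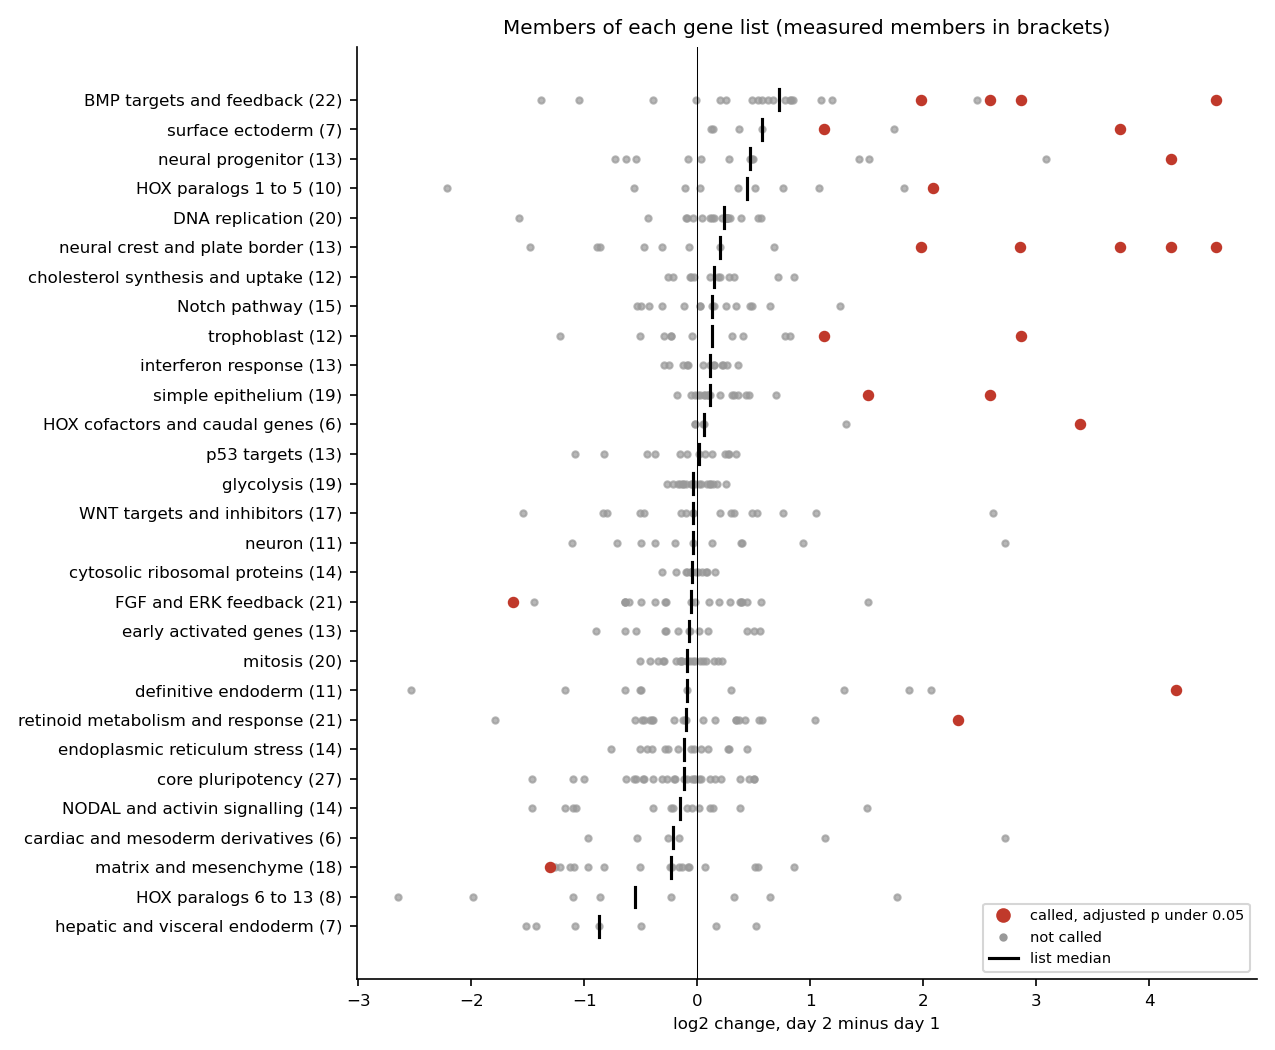
Log2 change from day 1 to day 2 of each measured member (points) of the gene lists with at least 6 measured members, with called genes in red and the list median as a black bar. The BMP list has the highest median, 0.73, and the list of plate border genes the most called members, 5 of 13.

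Most other lists had no called gene: of 32 lists 10 held a risen gene, 2 a fallen gene and 20 neither. Among 27 measured pluripotency genes none was called with limma, and 1 had an unadjusted p under 0.05 upward and 0 downward. Of the 27, 10 had both day 2 arrays below both day 1 arrays and 5 (18.5%) had them above, against 17.7% and 15% of all genes. LEFTY1, an inhibitor of NODAL, had 15300 and 12521 on day 1 and 5230 and 4837 on day 2, a change of -1.46 ± 0.92 that was not called (adjusted p = 0.865). Of 20 mitosis genes none was called (0 upward and 1 downward unadjusted, median -0.09), nor of 20 DNA replication genes (0 and 1, median 0.23). Of the replication genes 8 (40%), among them PCNA and MCM2 to MCM6, had both day 2 arrays above both day 1 arrays, with changes up to 0.56. Another 2 had them below, and the shares over all genes were 15% above and 17.7% below. Of 19 glycolysis genes and 14 ribosomal protein genes none was called and none had an unadjusted p under 0.05, with medians of -0.03 and -0.05.

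Lists of other tissues had few calls. Of 13 neural progenitor genes ZIC1 alone was called. PAX6, a neural and eye factor, had 15.9 and 52.6, then 413 and 146, present on both day 2 arrays and not called (adjusted p = 0.229). ISL1, a factor of motor neurons and heart progenitors, had 34.9 and 12.4, then 199 and 95.5 (adjusted p = 0.284). The summed signal of the 7 hepatic and visceral endoderm genes was 425 and 444 on day 1 and 448 and 233 on day 2, and 6 of the 7 had no present call on day 2. That of the 3 primitive streak genes was 581 and 401, then 382 and 347, with TBXT and EOMES without a present call on either day. The 2 blood genes summed to 208 and 77.8, then 174 and 116. None of these 3 lists had a called gene, and with limma 1 hepatic gene had an unadjusted p under 0.05 downward, with 0 in the other 2 lists.

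The NODAL, WNT, Notch, p53, cholesterol, endoplasmic reticulum stress, interferon and early activated lists had no called gene. In the NODAL and activin list (14 measured, median -0.15) NODAL itself, the ligand that keeps human stem cells pluripotent, had -1.08 ± 0.60, and with limma 0 members had an unadjusted p under 0.05 in either direction. In the WNT list (17 measured, median -0.03) DKK3 had 1.06 ± 0.32 and SFRP2, a secreted WNT inhibitor, -1.54 ± 0.63, with 1 member upward and 1 downward unadjusted. In the Notch list (15 measured, median 0.14) HEYL, a Notch target, was present on both day 2 arrays and neither day 1 array, and NOTCH2 had 0.35 ± 0.19, with 1 upward and 0 downward. Among 13 p53 targets PMAIP1, a proapoptotic protein, had -1.08 ± 0.34 and SESN1 0.35 ± 0.22, with 0 upward and 1 downward. SC5D, an enzyme of cholesterol synthesis, had 1630 and 1712, then 3625 and 2523, and missed the threshold (0.86 ± 0.20, adjusted p = 0.0904), as the nearest of 12 measured genes of that list (2 upward and 0 downward). The chaperones PDIA4 and HSP90B1 had -0.44 ± 0.19 and -0.76 ± 0.38 in the endoplasmic reticulum stress list (14 measured, 0 upward and 1 downward). In the interferon list (13 measured, 0 in either direction) ISG15 had -0.25 ± 0.26, and among 13 early activated genes (1 upward and 0 downward) KLF6 had 0.56 ± 0.22 and CCN2 -0.54 ± 0.27. KDR, a receptor of vessels and mesoderm, had -0.96 ± 0.45, and its 2 lists, endothelium with 4 and cardiac and mesoderm derivatives with 6 measured genes, had no call (0 upward and 1 downward, and 1 and 1).

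Second-day and first-day changes can be set side by side, the day 1 arrays being shared by both. The test of the difference between the steps called 16 genes (0.131%), 12 below 0 and 4 above. Of the 12, 11 were genes that had risen on the first day and had no called change on the second, including CYP26A1, RARB, SKAP2, ZNF503, DEPTOR, ID4 and BMP4. SGK1 was the other. As given above, BMP4 had no present call on day 0 or day 1. The 4 above 0 were ID2 and WDTC1, which were called on the second day, and ITGA5 and ONECUT2, which were not (adjusted p = 0.0776 for both). None of these 4 had a present call on day 1, the day that both steps share. For SKAP2, a signalling adapter beside the HOXA cluster, the signals were 175 and 267 on day 0, 5152 and 4874 on day 1 and 8002 and 5747 on day 2. For DEPTOR, an inhibitor of the kinase mTOR, they were 168 and 145.1, 2521 and 1690, then 2195 and 1601. The second-day changes of SKAP2 and DEPTOR were 0.44 ± 0.26 and -0.14 ± 0.34, neither called.

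**Figure D3:**
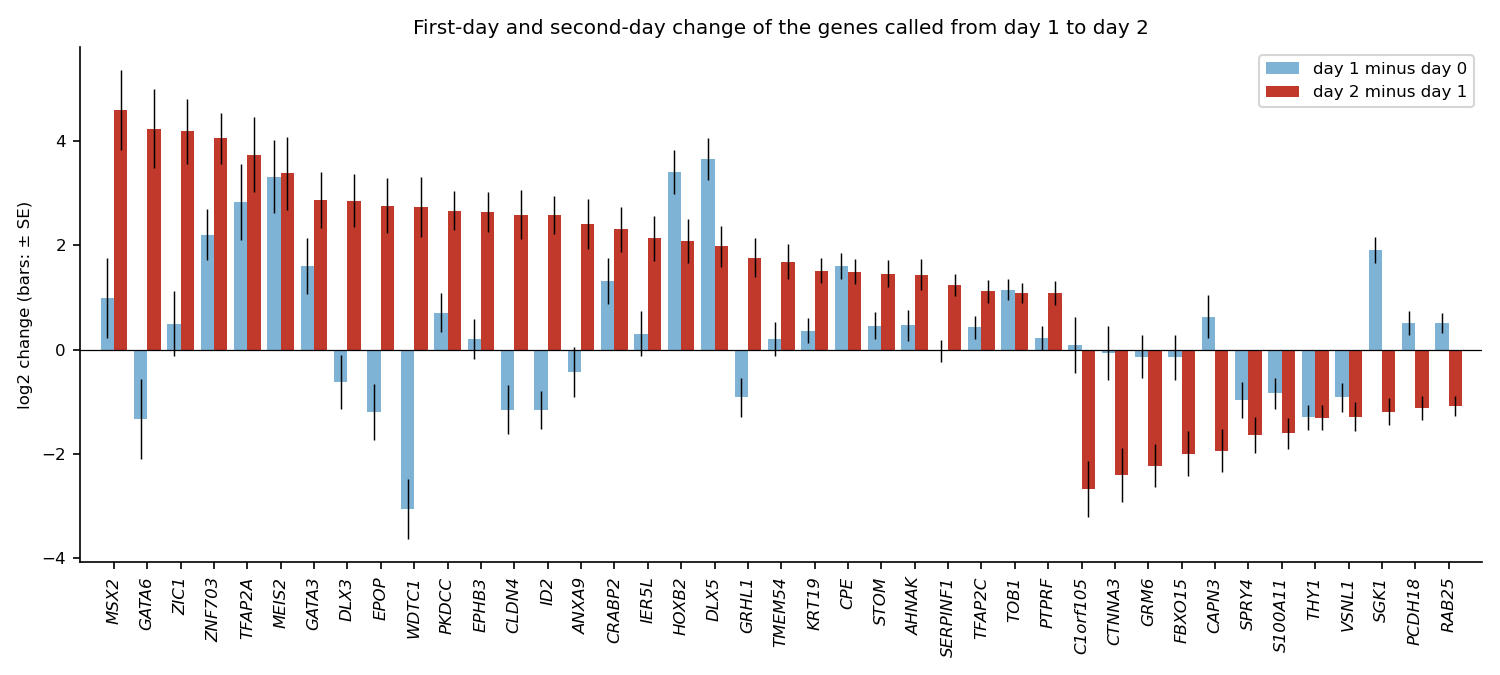
First-day change (blue) and second-day change (red) of the 41 called genes as log2 differences of means, with bars of ± SE, n = 2 per day, both using the day 1 arrays. Genes with both bars up include MEIS2, CPE, TOB1, HOXB2, DLX5, TFAP2A and ZNF703. Those with bars of opposite direction include ID2, WDTC1 and SGK1, whose steps differed in the test, and GATA6 and CLDN4, whose first-day changes were not called.

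Day 3 against day 0 compares means of arrays other than those of days 1 and 2, but shares their estimate of the spread. It also spans the first-day step, so it is not a separate measurement of the second-day step alone. It called 429 genes higher (3.52%) and 225 lower (1.84%). Of the 29 genes risen on the second day 28 were among the higher ones, 6.53% of that list, and WDTC1 was the exception. Of the 12 fallen genes 4 were among the lower ones, 1.78% of that list: SPRY4, THY1, VSNL1 and S100A11. The others differed in where they stood. SGK1 was at 0.78 against day 0 (adjusted p = 0.0871), and RAB25 and PCDH18 were at -0.25 and -0.39, none called. The third-day step itself called 11 genes (0.0902%), all higher. Of these AHNAK rose on both days. C1orf105, which had no present call on days 1 to 3, came back from its low day 2 signal. The change of the third day differed from that of the second in 1 gene, C1orf105 (0.0082%).

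On day 10, 1594 genes were higher than on day 0 (13.1%) and 1523 lower (12.5%). Of the 29 risen genes 27 were still among the higher ones, WDTC1 and ANXA9 being the exceptions. Their courses differed between the days. GATA3 reached a mean log2 signal of 12.5 on day 3 and stood at 11.8 on day 10, and DLX5 went from 10.2 on day 4 to 8.00 on day 10. GATA6 went from 6.91 on day 2 to 11.02 on day 9. Among the falls SPRY4, THY1, VSNL1 and SGK1 were lower on day 10 than on day 0. S100A11 reversed, from 8.62 on day 2 to 12.3 on day 9, and on day 10 was not called against day 0 (0.73, adjusted p = 0.0860). RAB25 and C1orf105 were higher on day 10 than on day 0.

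**Figure D4:**
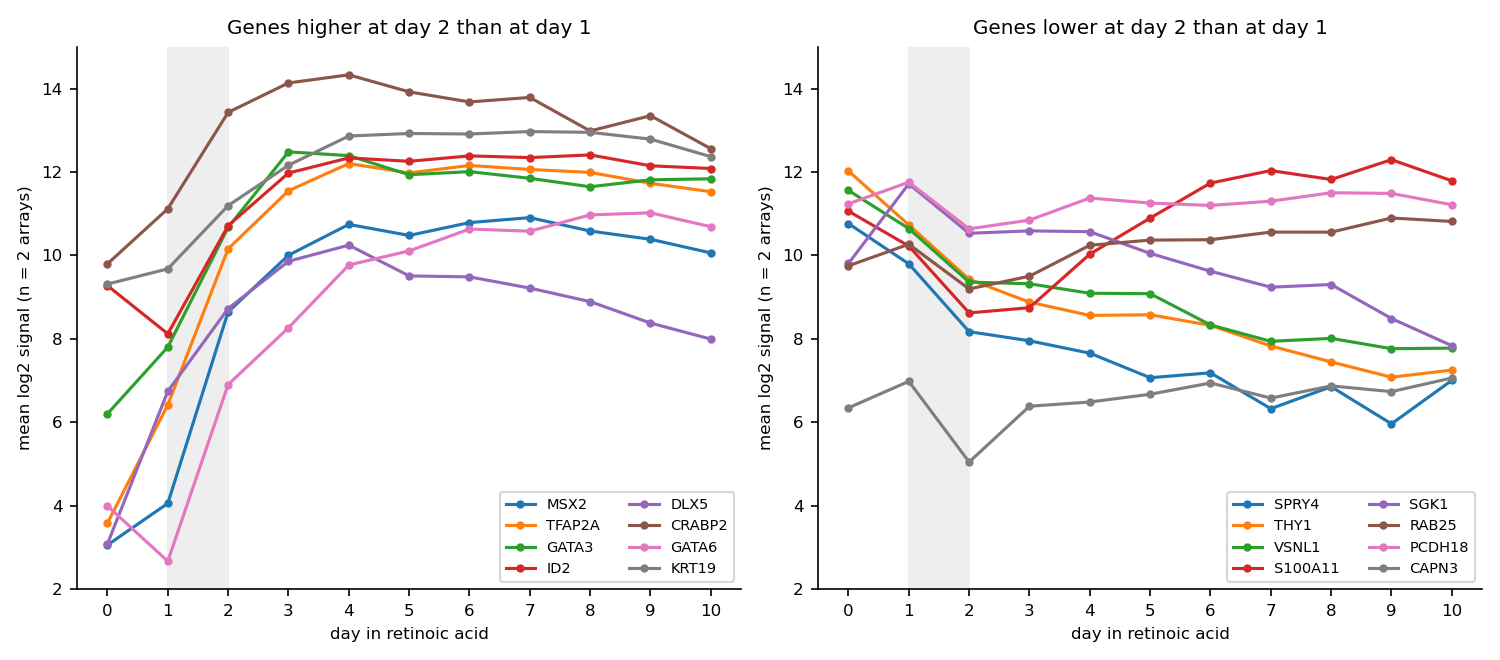
Mean log2 signal of 2 arrays per day over days 0 to 10 for 8 genes higher (left) and 8 genes lower (right) on day 2 than on day 1, with the second-day step shaded. The risen genes remain above their day 1 level through day 10, while S100A11 turns upward after day 3 and SGK1 peaks on day 1.

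**Figure D5:**
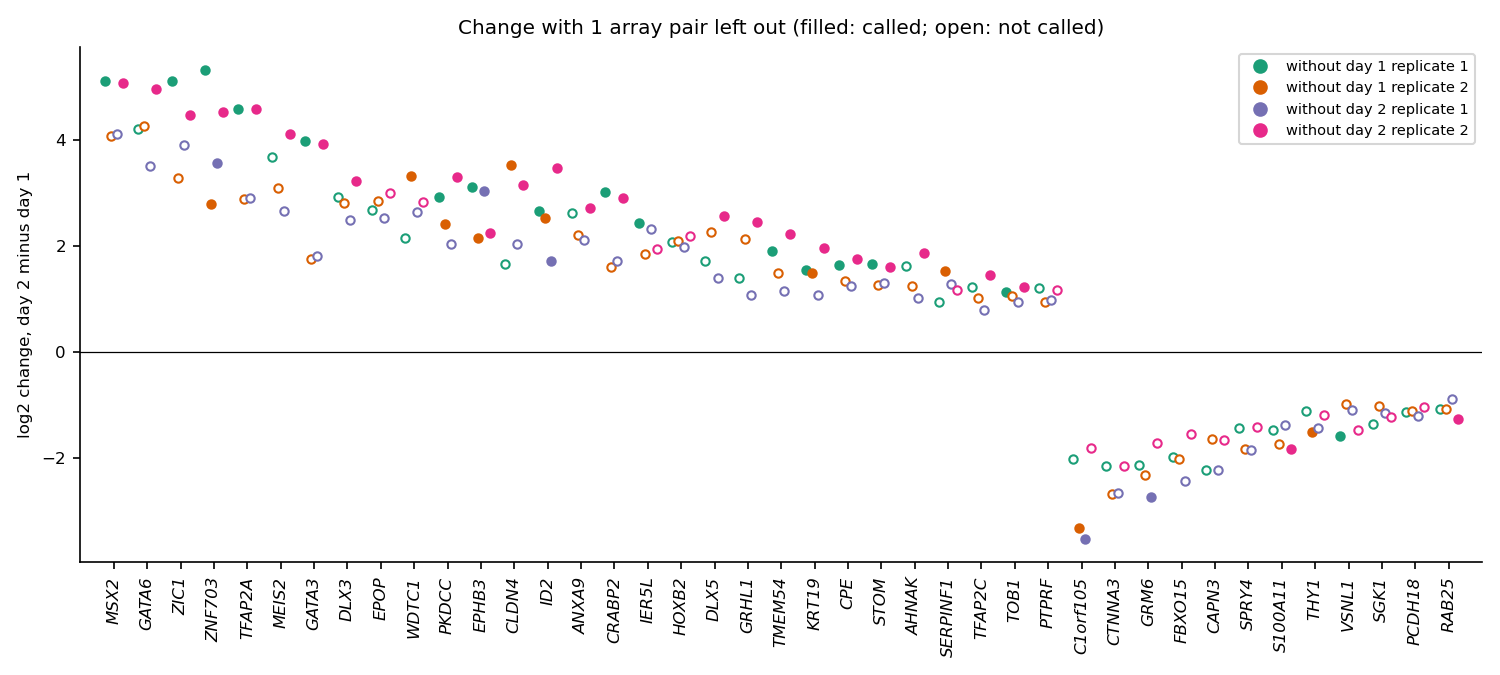
Log2 change from day 1 to day 2 of the 41 called genes in 4 fits that each leave out 1 replicate of 1 day, filled where the adjusted p was under 0.05 and open where not. All points stay on their side of 0, as they must where the replicates of the days do not overlap.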

How the data were processed

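RNA of 26 samples in 13 groups was hybridised to HG-U133 A and B chips. Per the submitters' processing notes, the authors made the deposited signal, an intensity, with MAS5 (no version given). The 2% trimmed mean of every array was about 500.2. The deposited detection p-value gave present calls (under 0.05), and the 52 deposited columns of calls were not used here. A gene was represented by 1 probe set annotated to it alone and present on at least 2 of 26 arrays, that with the highest mean log2 signal. Log2 signal was fitted per chip with limma 3.58.1 in R 4.3.3 (1 mean per group, intensity trend, 13 residual degrees of freedom), and p-values were adjusted over 12201 genes. The fit was tested on simulated data.

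The named genes were the 12 largest called changes per direction among genes present on both days, up to 10 present on 1 day only, up to 4 called members per list (else the 2 of smallest p), fixed genes, and genes called in both the step and the test between steps. Day 10 against day 0 was added after the data were seen, as were genes said to lie outside these rules and list members given to show a range. The members and the 32 lists were chosen with earlier results of these data known. The labels call replicates biological, without naming cultures. Day 1 and day 2 deviations of same-numbered replicates correlated at 0.183 (A) and 0.156 (B), across genes. Alternatives were other scalings, filters, offsets, moderation, sample sets, a replicate block, an ACTB covariate and left-out replicates. The number of arrays limits the precision.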

Additional observations from a re-analysis of the deposited data

How the results depend on the processing

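The main counts were 29 genes higher and 12 lower at day 2 than at day 1. Of 29 and 12, centring on control probe sets left 13 and 5 (median change of all genes -0.06), no intensity trend 16 higher, only the groups compared 4 and 0 (fewer samples for the spread), and an adjusted p under 0.01 left 7 and 0. The lower count was 6 with quantile normalization, 6 with H1 days only, 6 with the ACTB 3'/5' ratio as covariate, and 5 with no detection filter. With the replicate number as a block, whose pairing the labels do not state, 38 genes were higher and 19 lower. Leaving out 1 replicate gave 3 to 35 higher and 3 to 18 lower. The 16 genes whose steps differed became 26 with quantile normalization and 37 with the replicate block, and 12 to 33 without 1 replicate, the highest without H1 day 1 replicate 2. The single gene with a different third-day change became 2 with no detection filter, 0 with log2(signal + 50) and 7 with no intensity trend, and 0 to 15 without 1 replicate, the highest without H1 day 2 replicate 1. The day 3 against day 0 counts of 429 and 225 kept within 1.5 times with quantile normalization, no detection filter, log2(signal + 50), no intensity trend and the block (529 and 335 with the last), and were 210 to 287 and 80 to 156 without 1 replicate, fits added after the data were seen. ZIC1 alone reversed, to -0.42 with no detection filter. The cause of these changes was not tested, apart from the smaller samples named. Signals near background limit the dim genes, and 7 called genes were without a present call on both days.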
